A study of Mus musculus with 12 samples.

Results

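The levels of 10 genes of the circadian clock and its direct outputs were taken from bulk RNAseq from mouse cortex and are described in each of 12 libraries. The genes are Per1, Per2, Per3, Cry1, Arntl, Nr1d1, Nr1d2, Ciart, Dbp and Tef, 10 of the 36047 genes in the data, and they were taken by gene symbol with the values of all their transcripts added up. There were 3 WT and 3 Gde2KO libraries at 4 months of age and 3 WT and 3 Gde2KO libraries at 19 months. Gde2KO mice lack Gde2 constitutively (Gde2-/-, gene symbol Gdpd5), a gene that encodes a membrane enzyme that cleaves glycosylphosphatidylinositol anchors, and WT mice carry the intact gene. Mice of both sexes were used in the study and no agent was given to the animals of these libraries as far as the sources used here tell. The hour of dissection and the light schedule are not given in the sources used here, and neither is whether the libraries of both ages were prepared together.

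The circadian clock is a feedback loop of transcription that runs in nearly every cell. BMAL1 (gene symbol Arntl) pairs with CLOCK or NPAS2, binds E-box sequences and turns on the Per and Cry genes, whose proteins then shut the pair down. The same pair drives Nr1d1 and Nr1d2, which encode the repressors REV-ERB alpha and beta of Arntl, and Ciart, Dbp and Tef, and in many tissues the E-box targets peak at a different time of day from Arntl. In the forebrain Per1 is also induced quickly by neuronal activity.

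E-boxes and related sequences of this loop were searched close to the start sites of these genes. Promoters (250 bases before and 50 bases after each annotated start, RefSeq, GRCm38.p6) were at hand for 9 of the 10 genes, all but Per2, with 12 start sites among them. The E-box CACGTG, the related E-prime box CACGTT, the D-box TTATGTAA bound by DBP and TEF, the ROR element core TAGGTCA bound by the REV-ERB proteins and the cAMP response element TGACGTCA were searched on both strands, and no 2 matches in these genes shared a base. An E-box was found in 4 of the 9 genes, and at least 1 of the sequences searched in 7. No share of all genes with any of these sequences is at hand to set beside these counts. The shares given below are per promoter. Stretches around the matches are printed here 5′ to 3′ on the gene's strand, with matches in capitals, because these are the sequences through which the loop is known to act on its own genes.
Ciart, chr3:95882252-95882359, minus strand: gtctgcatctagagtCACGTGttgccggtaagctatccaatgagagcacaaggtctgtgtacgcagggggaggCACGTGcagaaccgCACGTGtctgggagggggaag
Per3, chr4:151044801-151044885, minus strand: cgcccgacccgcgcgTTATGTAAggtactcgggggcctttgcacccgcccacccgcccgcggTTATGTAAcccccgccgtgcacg
Per1, chr11:69098768-69098803, plus strand: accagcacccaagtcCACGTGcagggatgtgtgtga
Cry1, chr10:85185094-85185148, minus strand: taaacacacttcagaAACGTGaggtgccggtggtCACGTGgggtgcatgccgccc
Nr1d1, chr11:98775385-98775420, minus strand: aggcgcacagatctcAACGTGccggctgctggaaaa

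Ciart held 3 E-boxes, 116, 58 and 44 bases before its start, Per1 held 1 E-box 166 bases before its start, and Cry1 held an E-box 60 bases and an E-prime box 79 bases before its start. Nr1d1 held an E-prime box 28 bases before its start (AACGTG is CACGTT read from the other strand), and Tef held 1 E-box at each of 2 alternative starts. Per3 stood apart with 2 D-boxes, 205 and 158 bases before its start, and no E-box in this window. Arntl held a ROR element core 30 bases after one of its starts, and no match was found for Dbp or Nr1d2. Over 32851 promoters of the same length, an E-box was present in 7.15%, an E-prime box in 4.685%, a D-box in 0.9376%, a ROR element core in 2.606% and a cAMP response element in 1.79%. These matches describe letters in a window and not binding.

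The deposited values are estimated read counts divided by a size factor for each library, called normalized counts here. The 4-month libraries held 46434270 to 59728494 estimated reads and the 19-month libraries 3707928 to 44604721. A pair of 19-month libraries was much shallower than the rest, WT library A with 6734475 estimated reads and Gde2KO library A with 3707928 (libraries of this age are lettered, since their data columns have no replicate number). The mean of Gdpd5 was lower in Gde2KO at both ages, by 0.85 on the log2 scale at 4 months (SE 0.25, limma, adjusted p = 0.463) and by 1.11 at 19 months (SE 0.12, adjusted p = 0.0111), with no overlap between genotypes at either age. The neuronal cortex markers were all detected in every library, but the 4-month libraries differed in their levels of markers of neighboring tissue. WT replicates 1 and 2 had summed levels of 10 hippocampal markers of 19225 and 16282 normalized counts against 3540.2 to 5161 in the other 4-month libraries. The summed level of 10 striatal markers was 5532 and 3538 in these libraries against 31292 to 74783 in the others, and none of either list was at 0 in any 4-month library. Tbr1, a marker of deep-layer cortical neurons, was at 1236 and 1736 normalized counts in the same WT replicates and at 3852 to 4590.0 in the other 4-month libraries. Avp, a marker of hypothalamic neurons and an output of the clock there, was at 357 normalized counts in 4-month WT replicate 3 and at 0.81 to 22.6 in the other 11 libraries. A list of 10 hypothalamic markers, Avp among them, summed to 1606 normalized counts in that library. In the other 4-month libraries this list summed to 1249 to 3158, highest in Gde2KO replicate 3. The 4-month Gde2KO replicate 3 also stood apart, with 8.89% of its total from mitochondrial genes against 5.13% to 6.003% in the other libraries of that age. Fewer cells of a type and less RNA per cell cannot be told apart in these bulk samples.

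Per unit of transcript length, Tef was the most abundant of the 10 genes and Cry1 the least. The mean level over the 12 libraries, in TPM (read density per transcript length, here also divided by the size factor), was 255 for Tef, 110 for Dbp, 92.0 for Nr1d1, 59.1 for Nr1d2, 56.9 for Per1, 32.8 for Ciart, 22.5 for Arntl, 21.3 for Per3, 16.4 for Per2 and 12.2 for Cry1. Tef, with 211 to 300 TPM, did not overlap with Dbp, with 67.9 to 135 TPM. Every other pair of neighbors in this order overlapped across the libraries. The partners Clock and Npas2 had means of 19.97 and 21.3 TPM, close to Arntl. Nr1d1 lies on chromosome 11 opposite Thra, and the annotated ends of the genes overlap by 1075 bases. The kit is not stated to keep the strand, so reads from the shared stretch could belong to either gene.

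Per2 and Per3, which encode inhibitory subunits of the loop, were the members that differed most between the ages. Per2 measured 1419, 1131 and 1202 normalized counts in the 4-month WT libraries and 1198, 980.2 and 826 in the 4-month Gde2KO libraries. In the older mice it measured 1910.2, 2317 and 2365 in WT and 2405, 2685 and 2899.9 in Gde2KO. All 6 libraries at 19 months were above all 6 libraries at 4 months. The mean of the 19-month groups exceeded that of the 4-month groups by 1.118 on the log2 scale (SE 0.10, limma across all genes, adjusted p = 2.66e-05). Over 24 alternative analyses, among them 1 without 4-month WT replicates 1 and 2, this difference ran from 1.05 to 1.22 and was called each time.

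Per3 measured 1411, 1579.6 and 1672 normalized counts in WT and 1476, 1739.7 and 1189 in Gde2KO at 4 months. In the 19-month libraries Per3 measured 3153, 2824 and 2417 in WT and 2381, 2480.0 and 2659 in Gde2KO. Here too the ages did not overlap, and the difference was 0.82 on the log2 scale (SE 0.10, adjusted p = 2.0e-04). The genotypes overlapped at both ages.

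Ciart, a repressor of the CLOCK and BMAL1 pair, was the third member called higher at 19 months. It measured 392.8, 282 and 426 normalized counts in WT and 541, 461 and 471 in Gde2KO at 4 months, and 466, 783 and 1035 in WT and 713, 689.6 and 722 in Gde2KO at 19 months. The difference was 0.77 on the log2 scale (SE 0.17, adjusted p = 0.0054). The ages overlapped only through 19-month WT library A, the library of 466 normalized counts. That value rests on 100 estimated reads, with an exact Poisson interval of 379 to 567 normalized counts at 95% that covers counting error only. The effect of Ciart was 0.64 without 19-month WT library C, 0.68 without 4-month WT replicate 2, 0.65 without 4-month WT replicates 1 and 2 and 0.68 with TPM, each under the fold threshold of 0.72.

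Across all genes, 2623 of 18731 tested passed both criteria for age (adjusted p under 0.1 and an effect over 0.5 on the natural log scale, 0.72 in log2), which is 14.0%, and 846 of them, 4.52%, were higher at 19 months. Of the 10 clock genes, 3 were called, all of them higher at 19 months. In normalized counts the ages failed to overlap, with 19 months higher, for 2 of the 10 genes and for 5.52% of all genes. By the adjusted p alone, 8 of the 10 were higher at 19 months, against 15.3% of all genes, and none were lower. The median log2 difference was 0.48 over the 10 genes and -0.15 over all genes tested. A rescaling by medians of ratios moved the median of all genes to -0.04, a shift of 0.10, and relative to the median of all genes Per2 stood 1.26, Per3 0.96 and Ciart 0.91 higher at 19 months under either scaling. Age goes together with other animals, other depths and other tissue markers, so these cannot be told apart. The summed striatal markers were 31292 to 74783 normalized counts in 4 of the 4-month libraries against 6815 to 20041 at 19 months, and the hippocampal markers 16282 and 19225 in the other two against 4506 to 4939.

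Per1, the period gene that also responds to neuronal activity, was higher at 19 months by 0.61 (log2, SE 0.15, adjusted p = 0.0090), which is under the fold threshold. It measured 2478, 2589 and 3750.4 normalized counts in WT and 4662, 4413 and 3823 in Gde2KO at 4 months. At 19 months the WT libraries measured 3569, 5867 and 6704 and the Gde2KO libraries 5913, 5183 and 5504. The low value of 3569 came from WT library A, whose counting interval ran from 3320.4 to 3831. Without that library the age difference of Per1 was 0.74 and passed both criteria (adjusted p = 0.0018).

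The REV-ERB genes were also higher at 19 months without reaching the fold threshold. Nr1d1 measured 2778, 2299 and 3903 normalized counts in WT and 4556, 3757 and 3534 in Gde2KO at 4 months, and 4554, 5318 and 5698 in WT and 4842, 4859.8 and 4462 in Gde2KO at 19 months. Its log2 difference between ages was 0.54 (SE 0.12, adjusted p = 0.0051). The opposing gene Thra measured 19119 to 31225 normalized counts at 4 months and 16942 to 19683 at 19 months. Nr1d2 measured 2948, 2793 and 3437 in WT and 3897, 3591 and 4341 in Gde2KO at 4 months, and 4216, 4294 and 4365 in WT and 4677, 4136 and 4319 in Gde2KO at 19 months. Its log2 difference was 0.32 (SE 0.07, adjusted p = 0.0052), and 0.24 to 0.55 over 24 alternative analyses. In TPM the ages of Nr1d2 did not overlap, with 40.2 to 54.0 at 4 months and 64.6 to 76.2 at 19 months.

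Cry1, the partner of the PER proteins in repression, had a log2 difference between ages of 0.41 (SE 0.16, adjusted p = 0.065). It measured 309, 425 and 615 normalized counts in WT and 716, 572 and 783 in Gde2KO at 4 months, and 671, 572 and 802 in WT and 639, 843 and 874 in Gde2KO at 19 months. The ages overlapped widely. Dbp, an activator that acts through D-boxes, had a log2 difference of 0.26 (SE 0.10, adjusted p = 0.070), with the ages again overlapping.

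Arntl, of the positive limb of the loop, and Tef did not pass the test for age on normalized counts. Arntl measured 708, 972 and 1085 normalized counts in WT and 1061, 1261 and 1345 in Gde2KO at 4 months, and 1118, 967 and 923 in WT and 1045, 1025 and 1048 in Gde2KO at 19 months. Its log2 difference was -0.04 (SE 0.11, adjusted p = 0.763), and its sign turned under the rescaling. Tef, which encodes a D-box activator related to DBP, differed by 0.06 (SE 0.06, adjusted p = 0.441). Its 12 values ran from 10916 to 13203 normalized counts. In TPM the ages of Tef did not overlap, with 211 to 237 at 4 months and 249 to 300 at 19 months. Over 24 alternative analyses its log2 difference ran from 0.03 to 0.32 and was not called.

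**Figure D1:**
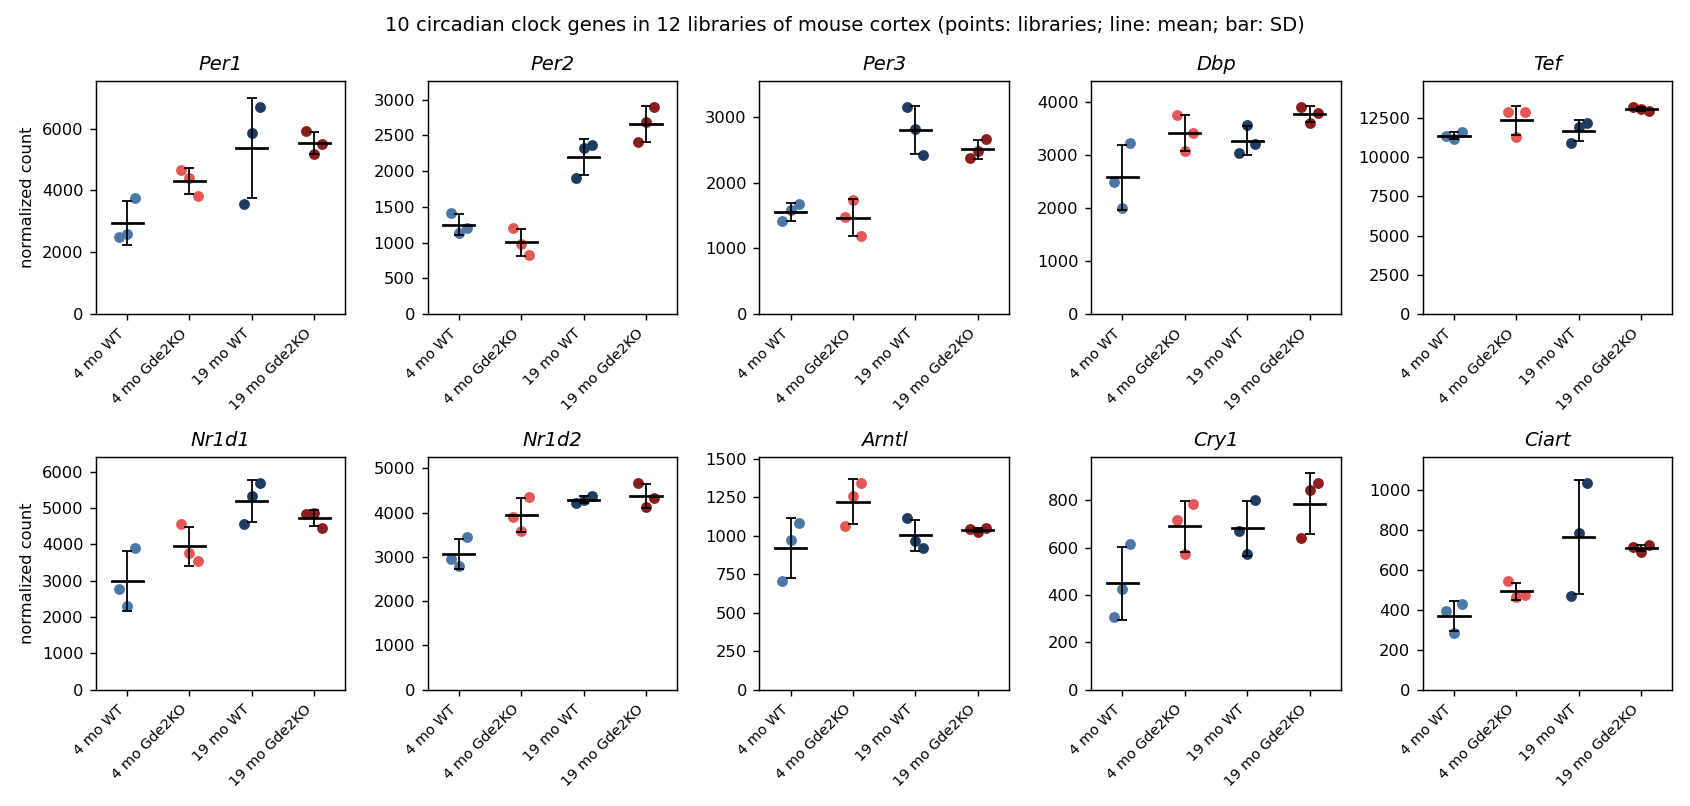
Normalized counts (y axis, from 0) of the 10 clock genes in each of the 4 groups (x axis), with 1 point per library, a line at the group mean and a bar of ± 1 SD (n = 3). All 19-month points of Per2 and Per3 lie above all their 4-month points, while those of Arntl and Tef are mixed.

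Other genes of the loop, a list of 11 genes beside the 10 members, gave 0 called for age by limma and 6 at an unadjusted p under 0.05, against 48.0% of all genes. These 6 also passed the adjusted p alone, against 47.3% of all genes, 5 of them higher and 1 lower at 19 months, and the list's median log2 difference was 0.42. Cry2, the second cryptochrome, measured 3378, 3816 and 4182 normalized counts in WT and 4591, 3997 and 3865 in Gde2KO at 4 months. Cry2 measured 5494, 5653 and 5873 in WT and 5166, 6203 and 6052 in Gde2KO at 19 months, above every 4-month library, with a log2 difference of 0.53 (SE 0.08, adjusted p = 5.2e-04). Npas2 differed by 0.42 (SE 0.17, adjusted p = 0.064). Among the 6 that passed the adjusted p alone, Clock was the gene lower at 19 months, by 0.15 (SE 0.07, adjusted p = 0.099). That is the size of the shift of all genes.

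Of 14 genes that modify the clock proteins or are driven by them, 0 were called for age by limma. At an unadjusted p under 0.05 there were 8, 4 higher and 4 lower, and 7 passed the adjusted p alone, shares near the 48.0% and 47.3% of all genes. The smallest p-values belonged to Csnk1e, a kinase of the PER proteins, with a log2 difference of 0.44 (adjusted p = 0.0014), and to Usp2, an output of the clock, with 0.40 (adjusted p = 0.0017). Glucocorticoid hormone also varies over the day and acts on Per1, so 13 glucocorticoid-responsive genes were read alongside. Of these, 4 were called, all higher at 19 months, against 4.52% of all genes called higher. They were Plin4 by 2.68, Hif3a by 1.52, Sult1a1 by 0.76 and Zbtb16 by 0.75 on the log2 scale (adjusted p = 2.5e-06, 1.74e-04, 0.0061 and 0.0044). Their part in the difference of the clock genes was not tested. Of 22 immediate early genes, 5 were called for age, 2 higher and 3 lower at 19 months, against 14.0% of all genes called. The log2 difference was -1.13 for Btg2, -1.14 for Apold1, -1.13 for Ccn1 and 0.92 for Fosb (adjusted p = 0.0016, 0.0024, 0.0026 and 0.0105). Of 10 temperature-responsive genes 0 were called and 4 had an unadjusted p under 0.05, again against 48.0% of all genes, with Hsp90aa1 lower by 0.53 and Hspa1a higher by 0.49 at 19 months (adjusted p = 0.0026 and 0.0052).

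The comparison of genotypes asks whether loss of GDE2 goes with another level of the clock genes at either age. At 4 months, 8 of the 10 genes had a higher mean in Gde2KO, as had 63.2% of all genes tested, and none of the 10 passed the test. Calls were made for 24 of 19035 genes at that age, 0.126%, and for 0 of the 10 members, by limma. At an unadjusted p under 0.05 there were 4 members, Per1, Nr1d2, Cry1 and Ciart, all higher in Gde2KO, against 10.6% of all genes. The median log2 difference was 0.42 over the 10 genes and 0.11 over all genes tested. Rescaling by medians of ratios moved the median of all genes to 0.01 and each member with it. With array weights, which give each library its own weight, 5 members were called at 4 months (Per1, Dbp, Nr1d1, Cry1 and Ciart), in a fit that called 2934 genes.

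The largest of these differences was that of Cry1, 0.66 on the log2 scale (SE 0.26, adjusted p = 0.463), followed by Per1 with 0.57 (SE 0.18, adjusted p = 0.463). Relative to the median of all genes these were 0.56 and 0.46. The genotypes did not overlap for Per1, Nr1d2 and Ciart, 3 of the 10 genes, against 11.1% of all genes that lay wholly higher in Gde2KO. Per1 was close to meeting between the groups, since WT replicate 3 measured 3750.4 normalized counts and Gde2KO replicate 3 measured 3823. Per2 and Per3 had lower means in Gde2KO, by 0.33 (SE 0.17, adjusted p = 0.480) and 0.10 (SE 0.17, adjusted p = 0.788), with overlapping libraries.

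Dbp measured 2491, 2002 and 3229 normalized counts in the 4-month WT libraries and 3756, 3075 and 3406 in the Gde2KO libraries. At 19 months it measured 3036, 3565 and 3202 in WT and 3902, 3608 and 3791 in Gde2KO. The log2 difference between genotypes was 0.43 (SE 0.19, adjusted p = 0.463) at 4 months, where the groups overlapped, and 0.21 (SE 0.07, adjusted p = 0.647) at 19 months, where they did not. The D-box activator Tef measured 11322, 11178 and 11608 in WT and 12908, 11300.3 and 12863 in Gde2KO at 4 months, and 10916, 11949 and 12164 in WT and 13203, 13048 and 12916 in Gde2KO at 19 months. Its differences were 0.12 (SE 0.12, adjusted p = 0.649) and 0.16 (SE 0.05, adjusted p = 0.620).

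At 4 months the low values were mostly those of WT replicates 1 and 2. For Per1, Dbp, Nr1d1, Nr1d2, Cry1, Arntl and Ciart the third WT library was above both of them, and for Dbp, Nr1d1, Cry1 and Arntl it lay within the range of the Gde2KO libraries. These are the libraries with the hippocampal markers and the low striatal markers described above. With both left out together, which leaves 1 WT library, the difference was 0.19 for Per1, 0.07 for Dbp, 0.01 for Nr1d1 and 0.15 for Cry1, with 0 members and 14 genes called. In that fit the lone WT library is assumed to vary like the Gde2KO group. Without WT replicate 3 alone, Per1 and Cry1 were called (0.76 and 0.92, adjusted p = 0.0215 and 0.0407), in a fit that called 1510 genes. How much the dissected tissue contributed was not tested.

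Npas2, which can take the place of Clock beside BMAL1, followed the same libraries, with 472, 778 and 1112 normalized counts in WT and 1172, 1337 and 1123 in Gde2KO at 4 months (log2 difference 0.70, SE 0.28, adjusted p = 0.463). Of the 11 other loop genes 0 were called at 4 months by limma, and 4 had an unadjusted p under 0.05, all higher in Gde2KO. Rorb was among these and is also in the list of neuronal cortex markers, so the lists are not independent. Of the 14 modifiers and outputs 0 were called and 5 had an unadjusted p under 0.05, all higher. Over all genes 10.6% had such a p, and 1509 of these 2025 genes were higher in Gde2KO. Cry2 differed by 0.13 (SE 0.14, adjusted p = 0.644) and Clock by -0.03 (SE 0.11, adjusted p = 0.891).

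Immediate early genes, which are switched on within minutes of neuronal activity as Per1 can be, moved with genotype at 4 months. Of 22 such genes, 5 were called and 19 had an unadjusted p under 0.05, all higher in Gde2KO. Over all genes these shares were 0.126% and 10.6%. Nr4a1 differed by 1.60, Btg2 by 1.78, Dusp6 by 1.06 and Ccn1 by 1.10 on the log2 scale (adjusted p = 0.0626, 0.0626, 0.0663 and 0.0663). Over 18 alternative analyses Nr4a1 and Btg2 were called in 8 and Dusp6 and Ccn1 in 7. Without WT replicates 1 and 2 the differences of Nr4a1 and Btg2 were 1.21 and 1.38 (adjusted p = 0.681 for both). The summed level of the list was 23182 to 45110 normalized counts in the 4-month WT libraries and 65161 to 81909 in the Gde2KO libraries, and no gene of it was at 0. Among the glucocorticoid-responsive and the temperature-responsive genes 0 were called for genotype at 4 months. At an unadjusted p under 0.05 there were 4 of 13 glucocorticoid-responsive genes, all lower in Gde2KO. The median log2 difference of that list was -0.20. For the temperature-responsive list it was 1 of 10 genes, higher in Gde2KO, against 10.6% of all genes at such a p. The part of these lists in the levels of Per1 was not tested.

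**Figure D2:**
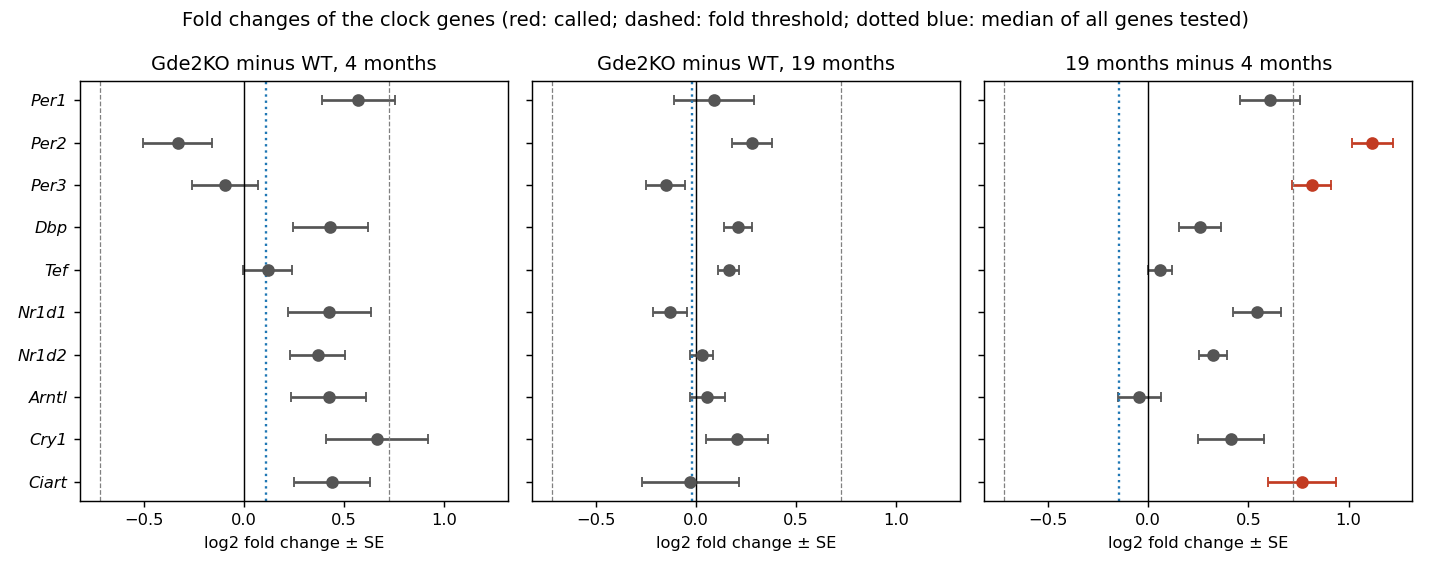
Log2 fold change (x axis) with its SE for each clock gene (y axis), for Gde2KO against WT at 4 months and at 19 months and for 19 months against 4 months. Called genes are red, the dashed lines mark the fold threshold of 0.72 and the dotted line the median of all genes tested. Only Per2, Per3 and Ciart, in the age panel, lie past the threshold.

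At 19 months 0 of the 10 clock genes were called between genotypes, and 18 of 18583 genes were, 0.0969%. Tef, Dbp and Per2 had an unadjusted p under 0.05, 3 of 10 against 6.91% of all genes, and the same 3 genes lay wholly higher in Gde2KO, against 5.85% of all genes. The largest of the 3 differences was that of Per2, 0.28 on the log2 scale (SE 0.10, adjusted p = 0.674). For Per2 the genotypes nearly met, at 2365 normalized counts in WT library C and 2405 in Gde2KO library A. The median log2 difference was 0.07 over the 10 genes and -0.02 over all genes tested.

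The remaining members differed little between genotypes at 19 months, with log2 differences of 0.20 for Cry1 (SE 0.16), 0.09 for Per1 (SE 0.20), 0.06 for Arntl (SE 0.09), 0.03 for Nr1d2 (SE 0.06), -0.03 for Ciart (SE 0.24), -0.13 for Nr1d1 (SE 0.08) and -0.15 for Per3 (SE 0.10). WT library A again carried weight. Without it Per1 turned to -0.18, and without both shallow libraries to -0.23. Of the 11 other loop genes and the 14 modifiers 0 were called, with 1 and 2 at an unadjusted p under 0.05. The immediate early, glucocorticoid-responsive and temperature-responsive lists also had 0 called at 19 months, with 1, 0 and 1 at an unadjusted p under 0.05. Over all genes 6.91% had such a p.

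Whether the genotype difference itself changed with age was tested in all 12 libraries. By an adjusted p under 0.1, 9 of 18731 genes passed, 0.048%, and 0 of the 10 members. At an unadjusted p under 0.05 there were 3 members against 12.9% of all genes, namely Per2, Nr1d1 and Nr1d2. Per2 went from a lower mean in Gde2KO at 4 months to a higher one at 19 months, a change of 0.61 on the log2 scale (SE 0.21, adjusted p = 0.368). Nr1d1 and Nr1d2 changed by -0.56 (SE 0.24, adjusted p = 0.379) and -0.34 (SE 0.14, adjusted p = 0.373). The median over all genes was -0.15 here and moved to -0.03 under the rescaling, and relative to it the change of Per2 was 0.76 and that of Nr1d1 -0.41. Without 4-month WT replicate 3, Nr1d1 and Nr1d2 passed (-0.77 and -0.43, adjusted p = 0.0223 and 0.0790), and with array weights 6 members did. Of the other lists 0 genes passed, with 4 of 11 loop genes, 4 of 14 modifiers and outputs, 19 of 22 immediate early, 3 of 13 glucocorticoid-responsive and 2 of 10 temperature-responsive genes at an unadjusted p under 0.05.

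A ratio within a library does not depend on how the library was scaled, so the ratio of Dbp, an E-box target, to Arntl was compared as well. In log2 it was 1.81, 1.04 and 1.57 in the 4-month WT libraries and 1.82, 1.29 and 1.34 in the Gde2KO libraries. The 19-month ratios were 1.44, 1.88 and 1.79 in WT and 1.90, 1.82 and 1.85 in Gde2KO. The genotypes overlapped at both ages. The mean was 1.48 ± 0.40 in WT and 1.48 ± 0.30 in Gde2KO at 4 months (SD, n = 3 each, exact two-sided permutation test, p = 0.9). At 19 months it was 1.71 ± 0.23 and 1.86 ± 0.04 (SD, n = 3 each, exact two-sided permutation test, p = 0.4, and 0.8 adjusted over both ages). The smallest p that 3 against 3 libraries allow is 0.1. With Npas2 in place of Arntl the genotypes overlapped at 4 months, with 1.77 ± 0.55 in WT and 1.49 ± 0.26 in Gde2KO (SD, n = 3 each, exact two-sided permutation test, p = 0.6). At 19 months that ratio did not overlap between genotypes, with 1.32 ± 0.29 and 1.61 ± 0.08 (SD, n = 3 each, exact two-sided permutation test, p = 0.1).

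With Per2 in place of Dbp the log2 ratio to Arntl was 1.002, 0.22 and 0.15 in WT and 0.18, -0.36 and -0.70 in Gde2KO at 4 months. The 19-month values were 0.77, 1.26 and 1.36 in WT and 1.20, 1.39 and 1.469 in Gde2KO. The groups overlapped at both ages. Dbp and Per2 did not rank the 4-month libraries alike: WT replicate 2 had the lowest Dbp ratio and the second highest Per2 ratio of that age.

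How far the members varied together from library to library differed between them. For each member, its log2 levels, centered within each age, were compared over the 12 libraries with the mean of the other members of the group Per1, Per2, Per3, Dbp, Tef, Nr1d1, Nr1d2 and Ciart. Pearson's r was 0.88 for Per1, 0.85 for Nr1d1, 0.82 for Dbp and 0.81 for Ciart (Spearman's rho 0.80, 0.78, 0.56 and 0.65). It was 0.62 for Nr1d2, 0.61 for Cry1, 0.60 for Tef and 0.29 for Arntl. For Per2 and Per3 it was -0.11 and -0.35.

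These values differed between the ages and rested in part on a few libraries. For Nr1d1 r was 0.996 within the 6 libraries of 4 months and 0.45 within the 6 of 19 months, and for Per1 it was 0.87 and 0.97. For Arntl it was 0.50 and -0.79, for Per2 -0.36 and 0.55 and for Per3 -0.09 and -0.84. Without the 2 libraries farthest from the median, r was 0.82 for Per1, 0.85 for Nr1d1, 0.60 for Dbp and 0.50 for Ciart. It was then 0.67 for Cry1, 0.52 for Arntl, 0.44 for Nr1d2, 0.26 for Tef, 0.25 for Per2 and 0.03 for Per3. The libraries share depth, dissection and scaling, and the values are given as a description.

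**Figure D3:**
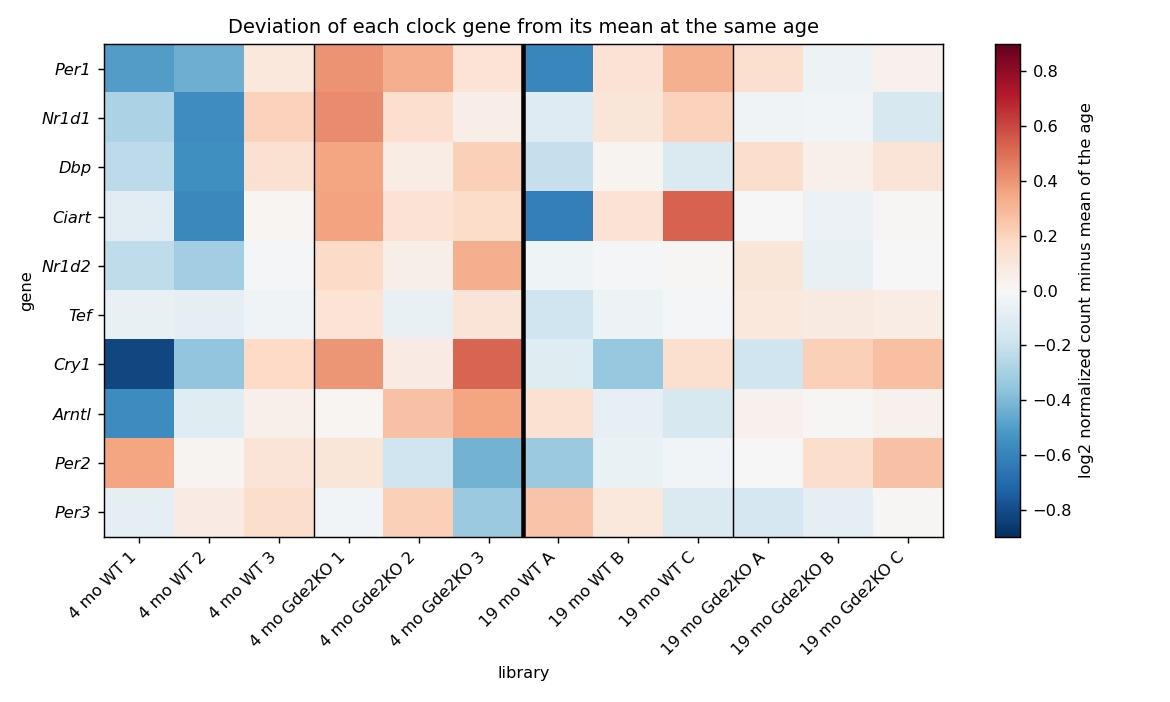
Log2 normalized count of each clock gene (rows) in each library (columns) minus the gene's mean over the libraries of the same age, with red above and blue below. Per1, Nr1d1, Dbp and Ciart are lowest together in 4-month WT replicates 1 and 2, and Per1 and Ciart in 19-month WT library A, while Per2 is highest of the 4-month libraries in WT replicate 1.

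Among 14285 genes that are no members and had a mean of at least 50 normalized counts, the 10 most alike to the mean of the 8 genes over the 12 libraries included Arhgap19 (r = 0.97), Agpat3 (0.95), Midn (0.94), Filip1 (0.93), Stk40 (0.93), Hrh3 (0.93), Mycn (0.92), Erf (0.91) and Vps33a (0.91). Those most opposed were Anks3 (-0.96), Evc (-0.93), Dgkq (-0.91), Clrn1 (-0.90) and Ankrd10 (-0.89). The median of the absolute r over all 14285 genes was 0.29. When levels were centered within each of the 4 groups instead, 5 of the 10 and 2 of the 5 stayed on these lists. Of the other loop genes, Bhlhe40, a repressor of the same E-boxes, had the highest r (0.85) and Arntl2 the lowest (-0.58). Likeness was not particular to the loop. Of the immediate early genes, Arc (0.89), Sik1 (0.88) and Egr1 (0.86) had a higher r than Bhlhe40, and Nr4a3 had the lowest of that list (-0.31).

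The spread between libraries of one group was within the range of other genes. The pooled within-group SD in log2 was largest for Ciart (0.34), Cry1 (0.33) and Per1 (0.30) and smallest for Tef (0.07), and only 1.64% of all genes tested had a lower SD than Tef. The median over the 10 genes was 0.20, against 0.24 for all genes tested and 0.16 for the 8646 genes with a mean at least as high as that of the lowest member. It was 0.25 at 4 months and 0.14 at 19 months, against 0.26 and 0.17 for all genes.

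**Figure D4:**
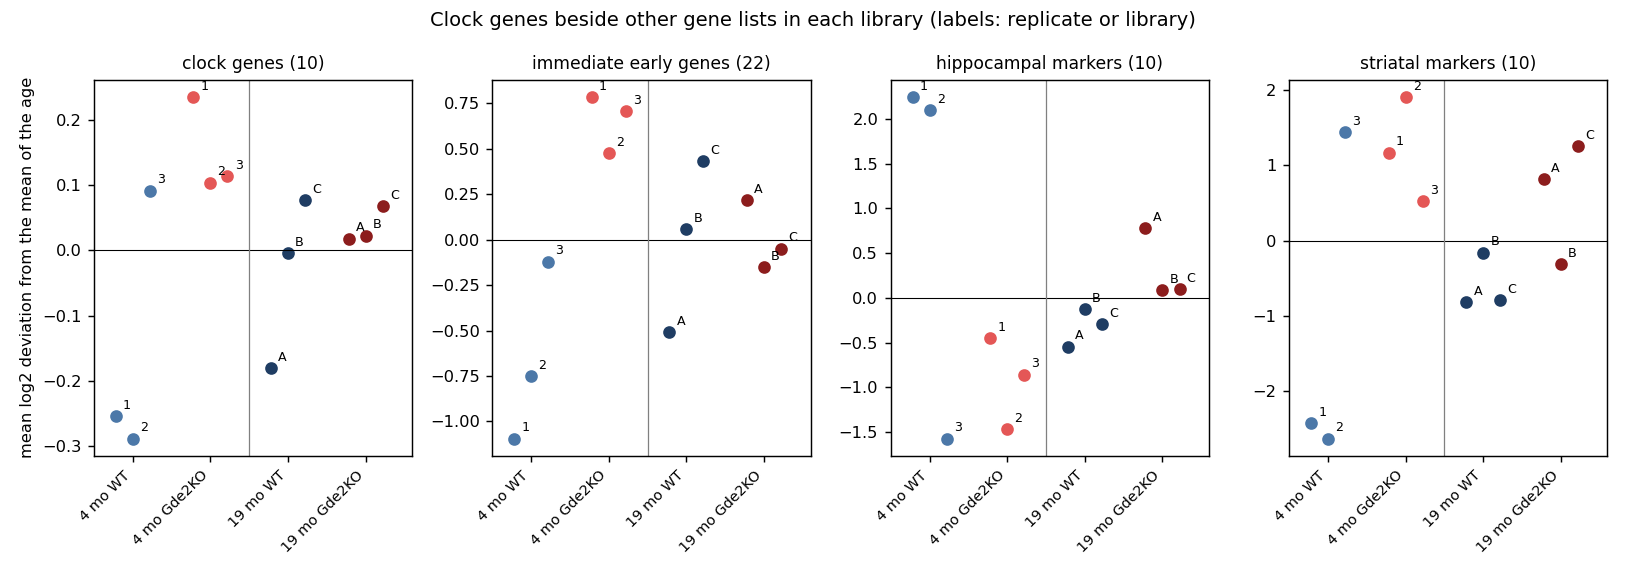
Mean log2 deviation from the mean of the same age (y axis, a different range in each panel) of the 10 clock genes, 22 immediate early genes, 10 hippocampal and 10 striatal markers, with 1 point per library, labelled by replicate or letter, in 4 groups (x axis). The 4-month WT replicates 1 and 2 are lowest of their age for the clock genes, the immediate early genes and the striatal markers and highest for the hippocampal markers.

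Several lists were low in the same 4-month libraries as the clock genes. The mean log2 deviation of the 10 clock genes was -0.25 and -0.29 in 4-month WT replicates 1 and 2, 0.09 in WT replicate 3 and 0.10 to 0.23 in the Gde2KO libraries. That of the immediate early genes was -1.09, -0.75 and -0.12 in the WT libraries and 0.47 to 0.78 in the Gde2KO libraries. In WT replicates 1 and 2 it was -0.66 and -0.45 for the 8 neuronal cortex markers, -0.23 and -0.28 for 7 oligodendrocyte markers and -0.22 and -0.30 for 6 endothelial markers. In the other 4-month libraries these lists ran from 0.12 to 0.42, from 0.04 to 0.26 and from 0.08 to 0.24. The 7 astrocyte markers went otherwise, with 0.29 and -0.04 in WT replicates 1 and 2 and -0.16 to 0.08 in the others. As summed normalized counts, the neuronal cortex markers were at 134235 and 115617 in these WT replicates and overlapped with the others, at 124936 to 180752. At 19 months WT library A was lowest in both lists, with -0.18 for the clock genes and -0.51 for the immediate early genes, and WT library C was highest in both, with 0.08 and 0.43. The Gde2KO libraries A, B and C of that age did not follow the same order in both lists, with 0.02, 0.02 and 0.07 for the clock genes and 0.22, -0.15 and -0.05 for the immediate early genes. What the lists share was not tested.

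The leading transcript is given for the members called for age and for Per1. Transcripts of Nr1d2, Tef and Arntl whose share did not overlap between the ages are added. Per2 was read in full from the transcript ENSMUST00000069620.9 in every group. For Per1 the transcript ENSMUST00000021271.13 held a mean of 78.6% ± 4.2 of the gene in 4-month WT, 79.4% ± 2.6 in 4-month Gde2KO, 82.2% ± 1.2 in 19-month WT and 83.8% ± 0.9 in 19-month Gde2KO (SD, n = 3). For Ciart the transcript ENSMUST00000036418.9 held 50.9% ± 1.5, 55.1% ± 5.8, 52.7% ± 2.0 and 61.6% ± 12.1 in the same order. For Per3 the transcript ENSMUST00000103204.10 held 62.9% ± 3.5, 61.1% ± 2.8, 61.0% ± 4.6 and 69.5% ± 4.6. The leading transcript of Nr1d2, ENSMUST00000090543.5, held 74.8% to 89.3% of the gene at 4 months and 62.8% to 72.8% at 19 months. A processed transcript of Tef, ENSMUST00000167138.1, held 14.1% to 22.6% and 23.3% to 27.7%. A transcript of Arntl with a retained intron, ENSMUST00000211547.1, held 2.9% to 9.3% and 11.4% to 18.4%. These shares were not tested.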

How the data were processed

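Polyadenylated RNA from mouse cortex was sequenced as paired reads in 12 libraries. The authors estimated transcript counts with kallisto on GRCm38 and deposited them as signal values, each divided by a size factor of its library in sleuth, beside TPM scaled in the same way. The submitters' processing notes also name bcl2fastq 2.17, Trimmomatic 0.36 and STAR 2.5.2b. Transcripts were summed to 36047 genes, leaving out 1673 of 118489 that have no gene (0.541% to 0.605% of a library's total). Groups came from the labels. Only 46.7% to 62.9% of values were whole reads within 0.01, so no count test was used. Intervals cover counting error only, and p-values measure the spread between the libraries of a group, which the paper gives as 3 animals per genotype at 19 months and the labels do not tie to animals at 4 months.

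Tests used limma 3.58.1 (R 4.3.3) on log2(normalized count + 0.5) with an intensity trend, for genes with at least 5 in 47% of the libraries compared, adjusted by Benjamini-Hochberg over all genes tested. Called genes had an adjusted p under 0.1 and an effect over 0.5 on the natural log scale (0.72 in log2), and in the interaction an adjusted p under 0.1 alone. Fold changes on this scale understate those of low genes. The fits were also run on simulated counts with the same spread for all genes and no differences in tissue between libraries. That run cannot show how the fits behave under such differences. Ratios were compared by exact permutation tests (scipy 1.17.1). The rule named all members, Clock, Npas2 and Cry2, called genes of the other lists (at most 4 a list, or else 2), and the 10 most alike and 5 most opposed genes, of which 1 is not reported here. Bhlhe40, Arntl2, Tbr1, Thra, Avp, Arc, Sik1, Egr1, Nr4a3 and Rorb were named after their values were seen. The same holds for the transcripts of Nr1d2, Tef and Arntl. The members and lists were chosen with earlier results of these data known. Alternatives were pseudocounts of 1 and 5, other filters and thresholds, TPM, a median-of-ratios rescaling, no trend, array weights, a replicate block and left-out libraries.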

Additional observations from a re-analysis of the deposited data

How the results depend on the processing

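The calls of the clock genes for age and their absence for genotype held under most alternatives. For age, the number of members called was 3, 2 to 4 with each library left out, and 8 by the adjusted p alone, and Per2 and Per3 were called in all 24 alternatives and Ciart in 20. For genotype the number called at 4 months was 0, 0 to 2 with each library left out (2 without 4-month WT replicate 3), and 5 with array weights, and at 19 months it was 0 in all alternatives. For the interaction it was 0, 0 to 2 with each library left out (2 without 4-month WT replicate 3: Nr1d1 and Nr1d2), and 6 with array weights. The estimation of array weights gave a warning that it had not converged. Over all genes, the count at 4 months (24) was 12 without the filter, 13 with TPM, 12 without the trend, 2934 with array weights, 12 at an adjusted p under 0.05, 14 without WT replicates 1 and 2, and 5 to 1510 with each library left out. At 19 months (18) it was 7 without the trend, 77 with array weights, 34 without both shallow libraries and 9 to 45 with each library left out. For the interaction (9) it was 5 with TPM, 8744 with array weights and 6 to 2029 with each library left out. For age (2623) it was 1311 at a mean of 50 or more, 8860 by the adjusted p alone, 1720 without 4-month WT replicates 1 and 2, and 2160.0 to 2750.0 with each library left out. The cause was not tested. Some log2 differences changed direction. With array weights these were 0.032 for Per2 at 4 months (-0.33 without weights), -0.065 for Per1 and -0.0047 for Nr1d2 at 19 months, -0.071 for Tef in the interaction and 0.0080 for Arntl for age. With TPM they were -0.067 for Tef at 4 months, 0.017 for Cry2 in the interaction and 0.071 for Arntl for age. With the rescaling they were 0.067 for Per3 and 0.020 for Cry2 in the interaction and 0.061 for Arntl for age. Without both shallow libraries they were -0.23 for Per1, -0.035 for Nr1d2 and 0.047 for Npas2 at 19 months, and 0.071 for Per3 and -0.011 for Tef in the interaction. Without 4-month WT replicates 1 and 2 they were -0.015 for Cry2 at 4 months, and 0.053 for Per3, 0.13 for Dbp, 0.049 for Cry1 and 0.044 for Cry2 in the interaction. With each library left out, the ranges that crossed 0 were -0.23 to 0.048 for Per3 at 4 months, -0.18 to 0.27 for Per1, -0.022 to 0.067 for Nr1d2, -0.0011 to 0.14 for Arntl, -0.35 to 0.23 for Ciart, -0.18 to 0.030 for Npas2 and -0.020 to 0.11 for Cry2 at 19 months, -0.20 to 0.075 for Per3 and -0.018 to 0.078 for Tef in the interaction, and -0.13 to 0.021 for Arntl for age. The genotype difference in the log2 ratio, 0.01 at 4 months and 0.15 at 19 months for Dbp to Arntl, was -0.75 at 4 months with Per2 and -0.19 at 19 months with Nr1d1 in place of Dbp, and -0.21 to 0.18 and 0.02 to 0.24 with each library left out. A replicate block at 4 months gave 21 genes and 0 members called. Deviations of same-numbered 4-month libraries had correlations of 0.06, 0.0071 and -0.05, within the -0.14 to 0.11 of differently numbered pairs. With 3 libraries per genotype, whether same-numbered libraries share more than a number cannot be told from these values. No paired analysis was possible at 19 months because the columns carry no replicate number. The depth of the shallow 19-month libraries limits Cry1 and Ciart most, with 77 and 86 estimated reads in Gde2KO library A.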
